A study of Mus musculus with 4 samples.

Results

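The genes described here are the subunits of non-muscle myosin II and 2 further proteins that bind S100a4, measured by RNA-seq in 4 mouse mammary tumor cell lines. The 9 members were listed by name: the heavy chains Myh9, Myh10 and Myh14, the light chains Myl6, Myl9, Myl12a and Myl12b, and the S100a4 partners Ppfibp1 and Rtkn. All 9 were found among the 21090 genes of the expression table. Of these, 8 had a mean RPKM of at least 1 and entered the test with 10871 genes in all, and Myh14 lay below that level. RPKM divides the reads of a gene by its length in kilobases and by the depth of its library, so levels of different genes can be compared within a library.

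The study describes a shared origin for the lines, a primary mammary tumor that had spread to the lung. The tumor arose in a mouse with an activating Pik3ca allele and a mutant Trp53 allele, both switched on by Cre recombinase under the MMTV promoter. The control group (n = 2) held the unmodified parental line and the vector control line. The knockout group (n = 2) held 2 lines in which CRISPR/Cas9 was directed at S100a4, at exon 3 in the first line and at exon 2 in the other, after lentiviral infection and puromycin selection. The 4 lines are called parental, vector, exon 3 and exon 2 cells in what follows. The methods name no isolation of single clones. The labels give the cells as 307 in 3 libraries and as 308 in the exon 2 knockout, so whether that line has the same origin is in doubt, and a difference in origin and the editing of exon 2 cannot be told apart. Each line gave 1 library, so p-values rest on the spread between lines of a group, and the lines of a group differ in treatment or guide. The limma test used below draws the spread of each gene toward that of genes of similar level.

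Non-muscle myosin II is the motor that pulls on actin filaments in cells other than striated muscle, and drives cell contraction, retraction of the rear of a migrating cell and cytokinesis. Each molecule joins a pair of heavy chains with essential and regulatory light chains, and phosphorylation of the regulatory chain switches the motor on. S100a4 is a small calcium-binding protein of motile and metastatic cells that binds the tail of the Myh9 heavy chain and promotes the disassembly of its filaments.

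The site of S100a4 binding lies toward the carboxyl end of the Myh9 heavy chain, a stretch in which the heavy chains differ, so the end of the Myh9 coding sequence is shown beside that of Myh10. Capitals mark bases that differ between the aligned sequences or lie opposite a gap. The Myh9 sequence is the last 180 coding bases (GENCODE M21, GRCm38, minus strand, chr15:77761899-77763013, exons 40 to 41 of 41). The Myh10 sequence is the aligned 207 bases (plus strand, chr11:68814493-68815071, exons 40 to 41 of 41).
Myh9: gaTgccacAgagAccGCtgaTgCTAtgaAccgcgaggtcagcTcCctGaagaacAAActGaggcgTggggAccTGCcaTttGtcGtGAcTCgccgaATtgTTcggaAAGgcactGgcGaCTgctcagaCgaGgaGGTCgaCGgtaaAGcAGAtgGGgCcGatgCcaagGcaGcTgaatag
Myh10: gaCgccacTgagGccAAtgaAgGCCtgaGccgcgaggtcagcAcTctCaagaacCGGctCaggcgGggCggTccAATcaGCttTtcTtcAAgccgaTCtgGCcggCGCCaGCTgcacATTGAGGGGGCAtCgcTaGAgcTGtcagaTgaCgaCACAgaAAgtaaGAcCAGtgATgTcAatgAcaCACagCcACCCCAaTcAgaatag
Of 209 aligned columns, 119 (56.9%) were identical. Over the whole coding sequence Myh9 and Myh10 were 72.5% identical, with 122 bases as the longest identical run, and Myh14 was 66.9% identical to Myh9 and 64.8% identical to Myh10.

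The regulatory light chains are much closer to each other, which bears on how reads were divided between them. The first 75 coding bases of each are given, with capitals at positions that are not the same in all 3. Each stretch lies in exon 2 of 4 (Myl12a on the minus strand at chr17:70996806-70996880, Myl12b on the minus strand at chr17:70977157-70977231, Myl9 on the plus strand at chr2:156778545-156778619).
Myl12a: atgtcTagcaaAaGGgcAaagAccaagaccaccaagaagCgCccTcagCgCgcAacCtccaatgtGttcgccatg
Myl12b: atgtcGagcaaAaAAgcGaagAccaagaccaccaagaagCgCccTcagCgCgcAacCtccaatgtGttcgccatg
Myl9: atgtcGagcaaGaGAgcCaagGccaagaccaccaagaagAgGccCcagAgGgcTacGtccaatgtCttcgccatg
In this stretch 71 of 75 bases of Myl12b and 62 of 75 bases of Myl9 were identical to Myl12a. The whole coding sequences of Myl12a and Myl12b were 96.5% identical, with an identical run of 105 bases, and the annotation holds, beside the Myl12b gene itself, a separate locus under the same symbol that runs on the same strand through Myl12b and Myl12a and shares exon sequence with Myl12a. Reads from this pair may have been divided between them with error, so each was also taken with the other as a sum. Myl9 was 85.6% identical to Myl12a and 86.3% identical to Myl12b.

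The edited gene was measured first. S100a4 (chr3:90603771-90606045) had an RPKM of 3576 in parental and 4741 in vector cells, against 1136 in exon 3 and 1105 in exon 2 cells. Both knockouts lay below both controls, and the knockout mean was 26.9% of the control mean. The change on the log2(RPKM + 1) scale was -1.88 (SE 0.311), with an adjusted p of 0.0731 from limma, so S100a4 itself missed the threshold of 0.05. That call depended on the setting: the adjusted p was 0.0357 after quantile normalization, 0.0182 with the filter at a mean RPKM of 5, 0.00127 with a robust prior, 4.99e-08 without the parental line and 0.000366 without the vector control, and it stayed above 0.05 in the other 8 alternatives (0.0891 to 0.385). An annotated gene, Gm42674, has exons that overlap S100a4 on the same strand, so reads there could not be told apart by strand. RNA from an edited gene can still be made and counted, and the RPKM does not show how much protein remained. The study itself reports truncating mutations in most S100a4 transcripts of the knockout lines, and loss of the protein by Western blot. In these bulk libraries, fewer cells with a transcript and less of it per cell cannot be told apart.

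None of the 8 members tested passed the threshold in either direction. The limma test with Benjamini-Hochberg adjustment called 0.0184% of all tested genes lower (2 genes) and 0.0% higher, and at an unadjusted p under 0.05 it held 2 members, both lower, and 2076 genes (19.1%) in all. The weighted test on whole reads recovered from the RPKM values (voom) called 0 genes. Both knockouts lay below both controls for 2 members, Myh10 and Ppfibp1, against 31.2% of all tested genes. Both knockouts lay above both controls for 2 members, Myh9 and Myl12b, against 21.9% of all tested genes. The other 4 members tested overlapped between the groups. No member was 2-fold apart in all 4 pairs of a knockout and a control, against 1.73% of tested genes on the lower side and 0.267% on the higher side. The median change of the members was 0.12 on the log2 scale, and that of all tested genes was -0.078. With 2 lines against 2, an exact permutation test of a single value cannot go below a two-sided p of 0.333.

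**Figure D1:**
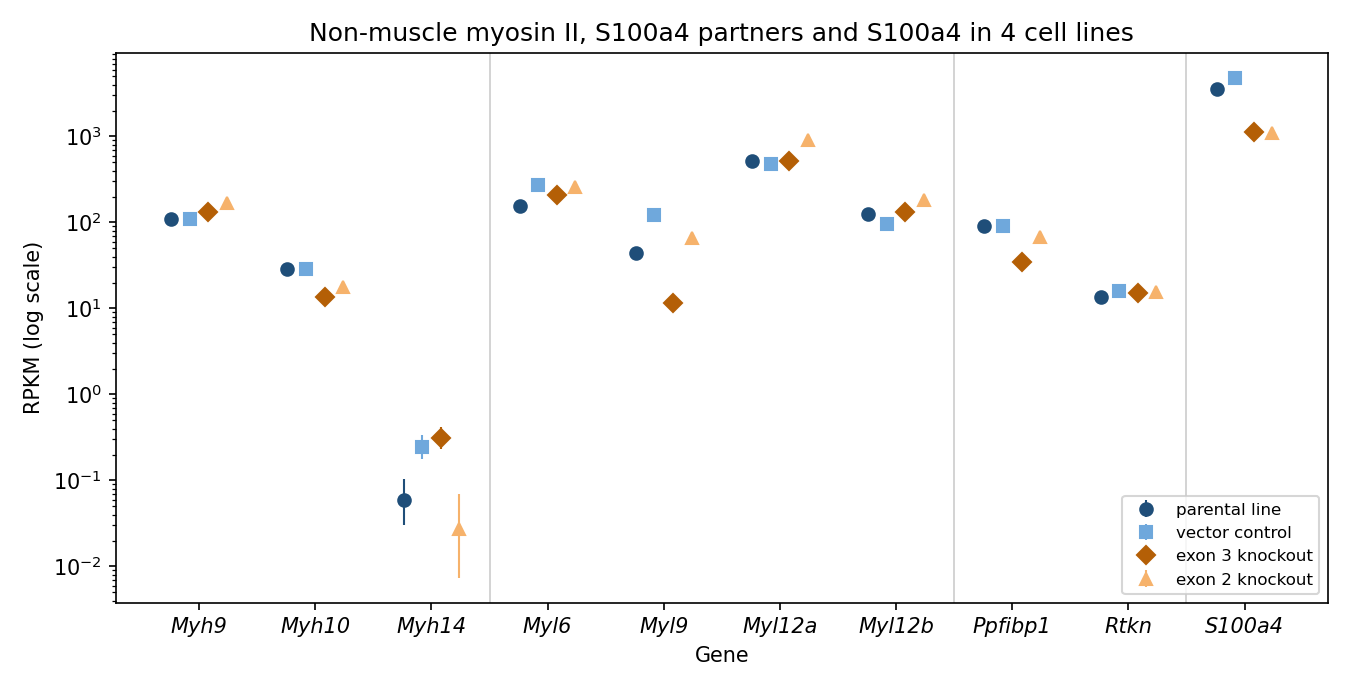
RPKM (log axis) of the 9 members and S100a4 in each of the 4 libraries, with vertical lines for the exact 95% Poisson interval of the recovered reads, which is narrower than the symbol for most genes. Myh10 and Ppfibp1 lie lower in both knockouts than in both controls, Myl9 is spread from 11.6 to 123, and Myh14 stays below 1.

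The heavy chains showed opposite placements for Myh9 and Myh10. Myh9 (chr15:77760587-77842175), the heavy chain of myosin IIA and the best known target of S100a4, had an RPKM of 110.6 in parental and 110.9 in vector cells, against 132 in exon 3 and 170 in exon 2 cells. The controls were nearly equal and both knockouts lay above them. The means were 111 ± 0.223 in controls and 151 ± 26.8 in knockouts (SD, n = 2 each). The change was 0.43 on the log2 scale (SE 0.296, adjusted p = 0.433 from limma), and over the 4 pairs it ran from 0.25 to 0.62.

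Myh10 (chr11:68691559-68816632), the heavy chain of myosin IIB, had an RPKM of 28.7 in parental and 28.9 in vector cells, against 13.8 in exon 3 and 17.9 in exon 2 cells. Both knockouts were below both controls, and the controls again lay close together. The means were 28.8 ± 0.148 and 15.8 ± 2.95 (SD, n = 2 each), so the knockouts stood at 55.0% of the controls. On the log2 scale this was -0.83 (SE 0.311), at an unadjusted p of 0.0209 and an adjusted p of 0.196 in the limma fit.

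Myh14 (chr7:44605803-44670843), the heavy chain of myosin IIC, was near the limit of detection. Its RPKM was 0.0588 in the parental line (12 reads), 0.247 in the vector control (41 reads), 0.313 in the exon 3 knockout (48 reads) and 0.0272 in the exon 2 knockout (4 reads). The exact Poisson intervals, which cover counting error only, ran from 0.0304 to 0.103, from 0.177 to 0.335, from 0.231 to 0.415 and from 0.00742 to 0.0698 in that order. The intervals of the higher and the lower library did not overlap within either group, and the groups overlapped. An uncharacterised gene has exons on the opposite strand of Myh14, and the strand setting of the counting is not stated.

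Within each library Myh9 was the main heavy chain, and its share differed between groups. Myh9 made up 79.4% of the summed heavy chain RPKM in parental and 79.2% in vector cells, against 90.4% in exon 3 and 90.5% in exon 2 cells. The lines of a group differed by far less than the groups, with 79.3% ± 0.127 in controls and 90.4% ± 0.0509 in knockouts, a difference of 11.1 percentage points (exact two-sided permutation p = 0.333, the smallest this design allows). Myh10 took 20.6% in both controls, 9.40% in exon 3 cells and 9.53% in exon 2 cells, and Myh14 took at most 0.214% in any library.

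The ratio of Myh9 to Myh10, chosen for description after the shares were seen, was 3.86 in parental and 3.84 in vector cells, against 9.61 in exon 3 and 9.49 in exon 2 cells. Its exact 95% counting intervals (Clopper-Pearson) ran from 3.74 to 3.97, 3.71 to 3.97, 9.17 to 10.1 and 9.10 to 9.90. Within a group the intervals overlapped almost fully, and between groups they were far apart. The ratio was 2.48-fold higher in knockouts (2.46-fold to 2.50-fold over the 4 pairs, exact permutation p = 0.333). Myh9 and Myh10 were each higher in the exon 2 than in the exon 3 knockout, by 1.29-fold (1.26 to 1.31) and 1.30-fold (1.23 to 1.38), so the ratio was similar in both. The summed heavy chain RPKM was 139, 140, 146 and 188 in parental, vector, exon 3 and exon 2 cells, so the knockouts stood above the controls by 1.04-fold to 1.35-fold over the pairs.

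**Figure D2:**
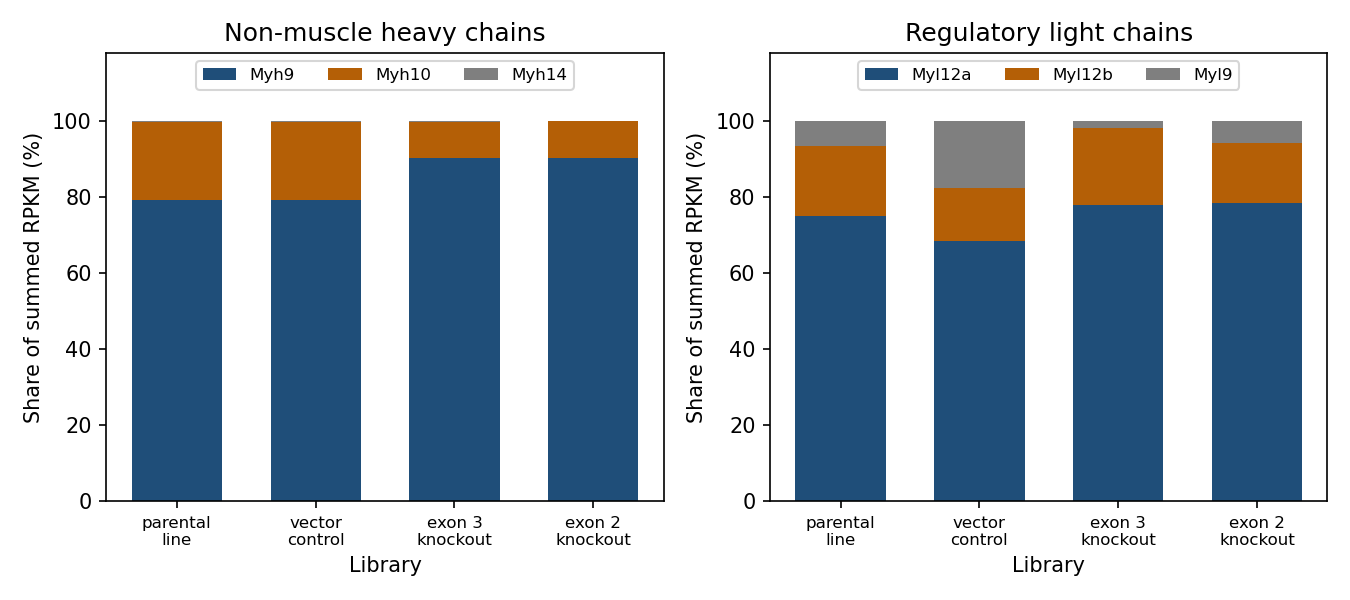
Share of each gene in the summed RPKM (percent, linear axis) of the non-muscle heavy chains (left) and the regulatory light chains (right), 1 bar for each of the 4 libraries. The Myh9 share is near 79% in both controls and near 90% in both knockouts, and the Myl9 share is 17.6% in the vector control and 1.76% in the exon 3 knockout.

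S100a4 and Myh9 were also set against each other, as ligand and target. The RPKM of S100a4 was 32.3 times that of Myh9 in parental and 42.7 times in vector cells, against 8.59 times in exon 3 and 6.49 times in exon 2 cells. Both knockouts lay below both controls, and the ratio was 4.98-fold lower in knockouts (exact permutation p = 0.333). S100a4 RNA thus remained above Myh9 RNA per unit length in every library. For the knockout lines the study reports truncating mutations in most S100a4 transcripts. The ratio in those lines therefore does not describe intact ligand against target.

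Of the regulatory light chains, Myl9 varied most between lines. Myl9 (chr2:156775420-156781658), the form found in smooth muscle as well as in other cells, had an RPKM of 44.0 in parental and 123 in vector cells, against 11.6 in exon 3 and 65.5 in exon 2 cells. The exon 3 knockout was lowest and the vector control highest, and the exon 2 knockout lay between the controls. The vector control exceeded the parental line 2.78-fold (counting interval 2.55 to 3.04), and the exon 2 knockout exceeded the exon 3 knockout 5.66-fold (4.72 to 6.82). The change of -1.37 on the log2 scale (SE 0.659, adjusted p = 0.283 in limma) ran from -3.30 to 0.56 over the pairs, so its sign was not the same in all pairs. Leaving out a line moved it widely: -0.17 without the exon 3 knockout (adjusted p = 0.945 in limma), -0.64 without the vector control (0.356), -2.57 without the exon 2 knockout (0.190) and -2.10 without the parental line (3.61e-06). In the last case the remaining control was the library with the most Myl9, and that fit called 550 genes lower and 238 higher in all.

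Of the smooth muscle markers tested, Tagln had low and high libraries like those of Myl9, and Smtn ran the other way. Tagln, an actin-binding protein of smooth muscle, had an RPKM of 29.9, 115, 14.8 and 122 in parental, vector, exon 3 and exon 2 cells, and Acta2, smooth muscle actin, had 55.2, 420, 178 and 253. Like Myl9, Tagln was lowest in the exon 3 knockout, while Acta2 was lowest in the parental line. Smtn, smoothelin, named after its values were seen, had 104, 48.7, 128 and 68.6, lowest in vector cells and highest in exon 3 cells. The marker list summed to 190 and 585 in the controls and to 323 and 443 in the knockouts, and 3 of its 8 genes passed the filter. Myh11, the smooth muscle heavy chain that defines differentiated smooth muscle, was between 0.0224 and 0.119 in the 4 libraries. The part of these markers in the spread of Myl9 was not tested.

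Myl12a and Myl12b encode the regulatory light chains of most non-muscle cells. Myl12a (chr17:70993656-71002878) had an RPKM of 514 in parental and 475 in vector cells, against 514 in exon 3 and 912 in exon 2 cells. Only the exon 2 knockout stood apart, and the parental line and the exon 3 knockout were equal. The change was 0.47 on the log2 scale (SE 0.338, adjusted p = 0.459 in limma). Myl12b (chr17:70973133-70990890) had an RPKM of 127, 97.0, 134 and 183 in the same order, with both knockouts above both controls (0.49 on the log2 scale, SE 0.311, adjusted p = 0.400 in limma).

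Summed, Myl12a and Myl12b gave 640 in parental and 572 in vector cells, against 647 in exon 3 and 1095 in exon 2 cells. The sum was higher in both knockouts, by as little as 1.01-fold in 1 of the 4 pairs (exact permutation p = 0.333). Myl12a was the leading regulatory chain, with 75.1%, 68.4%, 78.0% and 78.6% of the summed regulatory RPKM. Myl9 took 6.43%, 17.6%, 1.76% and 5.65%, below both controls in both knockouts, and Myl12b took 18.5%, 14.0%, 20.3% and 15.8%, with the groups overlapping.

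Myl6 (chr10:128490860-128494145), the essential light chain, had an RPKM of 156 in parental and 273 in vector cells, against 211 in exon 3 and 258 in exon 2 cells. The parental line was lowest, the vector control highest, and both knockouts lay between. The change was 0.18 on the log2 scale (SE 0.337, adjusted p = 0.795 in limma) and took the opposite sign after quantile normalization, after correction for GC content and length, and without the parental line. The light chains together summed to 6.03, 6.91, 5.95 and 7.54 times the heavy chains in parental, vector, exon 3 and exon 2 cells, with no separation of the groups.

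The other 2 partners differed from each other. Ppfibp1 (chr6:146888487-147032025) encodes liprin beta 1, a scaffold protein at the cell edge that binds S100a4. Its RPKM was 92.1 in parental and 91.8 in vector cells, against 34.3 in exon 3 and 67.9 in exon 2 cells. The controls were nearly equal, and both knockouts were below them, the exon 3 knockout by more. The means were 91.9 ± 0.227 and 51.1 ± 23.8 (SD, n = 2 each), and the knockouts stood at 55.6% of the controls. On the log2 scale this was -0.92 (SE 0.353), at an unadjusted p of 0.0246 and an adjusted p of 0.206 in limma. It was -0.43 without the exon 3 knockout and -1.40 without the exon 2 knockout. The exon 2 knockout exceeded the exon 3 knockout 1.98-fold (1.89 to 2.08).

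Rtkn (chr6:83135463-83152579), rhotekin, binds small GTPases and S100a4. It had an RPKM of 13.6 in parental and 15.9 in vector cells, against 15.1 in exon 3 and 15.5 in exon 2 cells. Both knockouts lay between the controls, and the change of 0.052 (log2, SE 0.311, adjusted p = 0.947 in limma) turned to -0.079 once GC content and length were corrected for. Genes with exons on the opposite strand overlap Ppfibp1, Rtkn (Wdr54) and Myl12a (Myom1), and their reads could not be told apart without the strand setting of the counting.

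The profile of Myh9 over the 4 libraries was compared with every tested gene, as the root mean square distance of centred log2(RPKM + 1). The nearest were Rita1 at 0.0126, Pdcd11 at 0.0170 and Ddx51 at 0.0204. Rita1 had an RPKM of 17.8 and 17.4 in the controls and 21.1 and 27.2 in the knockouts, a pattern like that of Myh9 in all 4 libraries. Among the members the nearest to Myh9 were Myl12b at 0.142 and Myl12a at 0.170, and the farthest were Myh10 at 0.634, Ppfibp1 at 0.708 and Myl9 at 1.26.

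Changes across all genes correlated with base composition and with coding length, so the members were set beside both. Across 10775 tested genes with a coding sequence, GC content correlated with the change between groups (Pearson r = 0.459, a description across genes, which are not replicates), and coding length did so with r = -0.282. Genes of the lowest GC octile had a median change of -0.68 and those of the highest 0.22. Ppfibp1 (49.3% GC) fell in an octile with a median change of -0.23, Myh10 (52.2%) in 1 with -0.034 and Myh9 (57.3%) in 1 with 0.24. Their own changes were -0.92, -0.83 and 0.43, and their coding lengths 2943, 6042 and 5883 bases. Myl9 (55.3%) fell in an octile with a median of 0.16 and changed by -1.37.

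After each library was corrected for GC content and length, Myh10 changed by -0.41 (adjusted p = 0.519 in limma) and Ppfibp1 by -0.46 (adjusted p = 0.530), and both stayed below both controls. Myh9 changed by 0.64 (adjusted p = 0.383) and stayed above both controls, while Myl12b, at 0.29, overlapped. In all, 2 members then lay below both controls, against 20.9% of the genes in that fit, and 1 above them, against 26.2%. The log2 ratio of Myh9 to Myh10 was 1.31 as deposited and 1.07 after the correction. The correction fits GC content and length together, and the part of either in these changes was not tested.

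**Figure D3:**
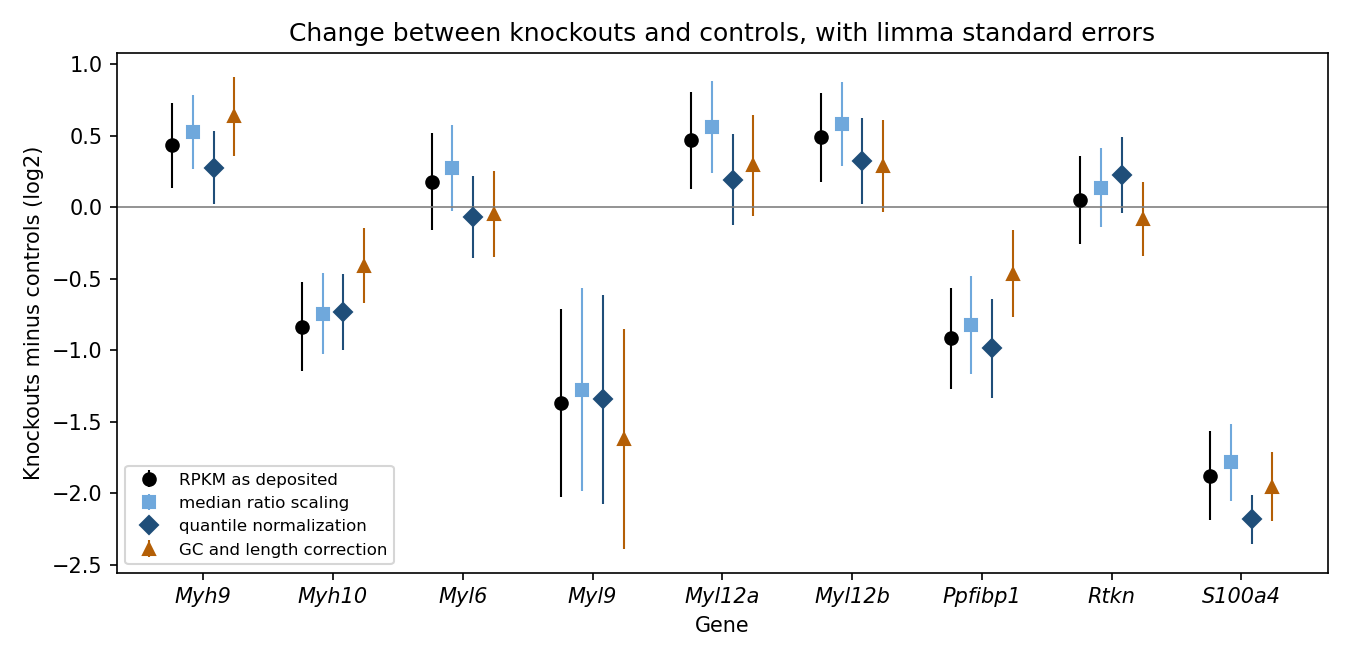
Change between the 2 knockouts and the 2 controls (log2 scale, points with limma standard errors) for the 8 members tested and S100a4, from the RPKM as deposited and under 3 other normalizations. Myh10, Ppfibp1 and Myl9 lie below 0 and Myh9, Myl12a and Myl12b above 0 under all 4, and Myl6 and Rtkn change sign.

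The regulators of myosin II, 30 genes for small GTPase signalling, light and heavy chain kinases, myosin phosphatase and scaffolds, were all tested, and 0 passed the limma threshold (11 at an unadjusted p under 0.05, against 19.1% of all tested genes). Both knockouts lay below both controls for 15 and above them for 4, and 11 overlapped, with a median change of -0.32 (31.2% and 21.9% of all tested genes lay below and above, with a median of -0.078). After correction for GC content and length, 6 lay below and 5 above, with a median of -0.032, against 20.9% and 26.2% of all genes in that fit. Prkca, a protein kinase C that phosphorylates the heavy chain, had an RPKM of 21.5 in parental and 15.3 in vector cells, against 6.98 in exon 3 and 7.60 in exon 2 cells. It was below both controls in both knockouts, by -1.21 on the log2 scale (SE 0.328, adjusted p = 0.130 in limma) and by -0.997 after the correction. Arhgef12, a guanine nucleotide exchange factor, had 21.5, 19.4, 10.9 and 12.0, again lower in both knockouts, with -0.79 (adjusted p = 0.213) that became -0.24.

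Some regulators were picked out after their values were seen, because the correction moved them most or left them. Rock1 and Rock2, kinases that phosphorylate the regulatory light chain, had changes of -1.18 and -1.37 that became -0.20 and -0.45, and both then overlapped between the groups. Trpm7, a channel with a kinase domain that acts on heavy chains, went from -1.01 to 0.031. In contrast Dapk3, a light chain kinase, went from 0.69 to 0.50 and Ppp1r12c, a myosin phosphatase subunit, from 0.54 to 0.48. Csnk2b, the regulatory subunit of casein kinase 2, had an RPKM of 170, 184, 270 and 262 in parental, vector, exon 3 and exon 2 cells, above both controls in both knockouts, and a change of 0.58 that became 0.57.

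**Figure D4:**
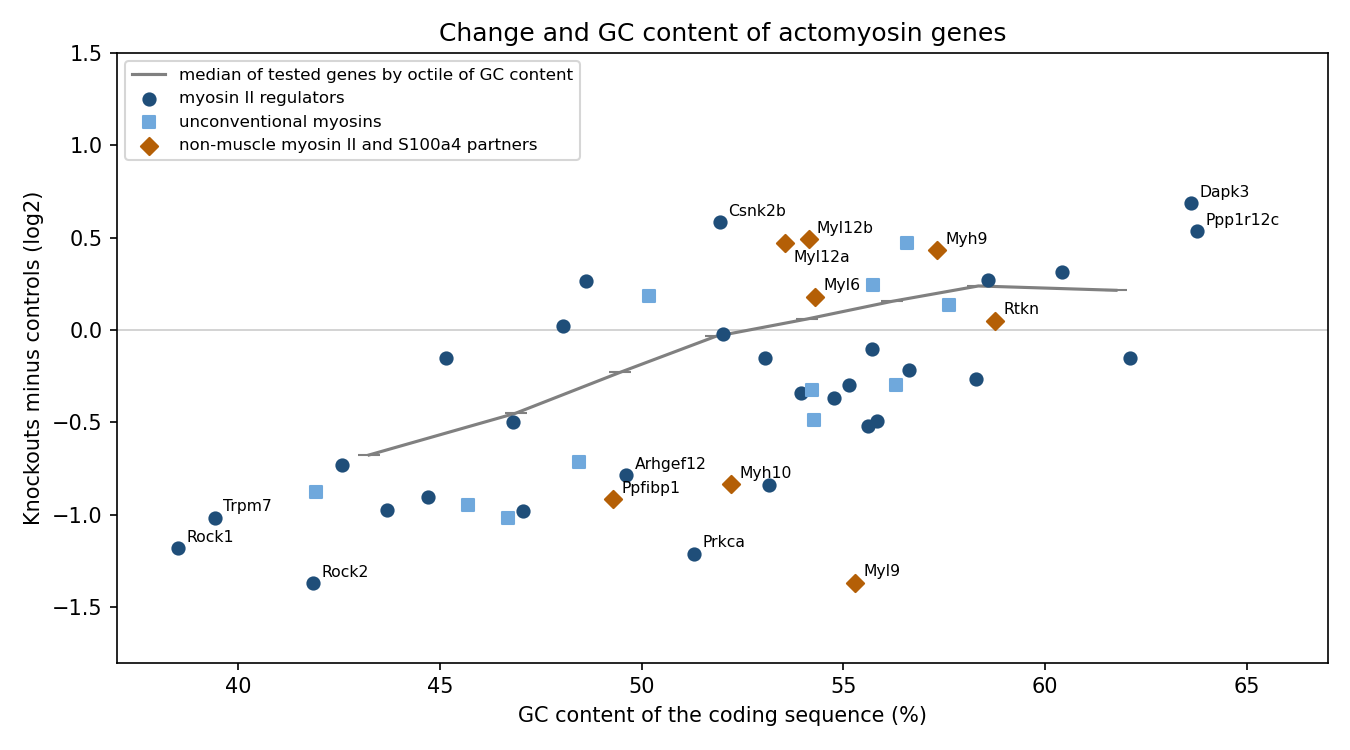
Change between knockouts and controls (log2 scale) against GC content of the coding sequence (percent) for the 8 members tested, 30 myosin II regulators and 11 of the 12 unconventional myosins tested, with the median change of all tested genes by octile of GC content as a line. The median runs from -0.68 to 0.24 over the octiles, and Prkca, Myl9, Myh10 and Ppfibp1 lie below the line while Csnk2b, Myl12a and Myl12b lie above it.

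Muscle myosin heavy chains were nearly absent. Of 19 muscle-type heavy and light chain genes, 16 were below the filter, 5 of them listed at 0 in every library, and of the 3 tested Mylpf was above both controls in both knockouts (RPKM of 1.13 and 2.32 in controls, 2.42 and 2.44 in knockouts, log2 change 0.37). Of all tested genes 21.9% lay above both controls, and Mylpf overlapped after the correction for GC content and length. Myl4, an atrial light chain, had 0.622 in parental and 2.93 in vector cells, against 3.24 in exon 3 and 0.360 in exon 2 cells, overlapping between the groups. Myl6b, an essential light chain found outside muscle too, was highest in vector cells at 24.6, and exon 3 cells at 17.0 and exon 2 cells at 12.5 lay between the controls. All 3 stayed below the RPKM of Myh9 in every library.

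Many unconventional myosins carry cargo or link membranes to actin, and most do not form filaments. Of 24 genes 12 were tested, 0 passed the limma threshold (4 at an unadjusted p under 0.05), 6 lay below both controls in both knockouts and 0 above, and the median change was -0.41. Of all tested genes, 19.1% had such a p, 31.2% lay below and 21.9% above. After correction for GC content and length, 4 lay below and 4 above (20.9% and 26.2% of all genes in that fit), with a median of -0.11.

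Relatives of the 2 other partners were mostly low. Of 6 liprin and rhotekin genes, 2 were tested. Ppfia1, liprin alpha 1, had an RPKM of 14.1, 13.1, 12.3 and 12.2 in parental, vector, exon 3 and exon 2 cells, a change of -0.14, and Rtkn2 had 3.77, 3.84, 3.62 and 3.32, a change of -0.10. Both lay below both controls in both knockouts, by amounts close to the median of all genes, and 31.2% of all tested genes lay below. After the correction Ppfia1, at 0.10, lay above both controls, and Rtkn2 overlapped. Ppfibp2, the other liprin beta, was at most 0.0250 in any library, far below Ppfibp1.

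Of 8 further proteins described as binding S100a4 or its family, 7 were tested and 0 passed the limma threshold (2 at an unadjusted p under 0.05), with 2 below both controls, 2 above and a median change of 0.18. These counts were near the shares of all tested genes (19.1% with such a p, 31.2% below and 21.9% above). The septins, which form filaments along actomyosin, did not lie on the same side. Sept2 and Sept7 were the 2 below. Sept2 had an RPKM of 116, 126, 53.1 and 82.6 in parental, vector, exon 3 and exon 2 cells (log2 change -0.86, adjusted p = 0.194 in limma). Sept7 had 131, 122, 46.7 and 91.6 (log2 change -0.94, adjusted p = 0.197). As with Ppfibp1, the exon 3 knockout was the lowest library for both. Sept6, named after its values were seen, had 11.8, 12.3, 14.9 and 23.4, above both controls in both knockouts (log2 change 0.59, and 0.70 after the correction). After the correction Sept2 changed by -0.42 and stayed below both controls, and Sept7 changed by -0.26 and overlapped.

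Markers of other cell types were set beside these genes. The mesenchymal markers were all tested, and 5 of 9 lay below and 1 above both controls (31.2% and 21.9% of all tested genes), with sums of 3991 and 2433 in parental and vector cells, against 1958 and 2266 in exon 3 and exon 2 cells. After correction for GC content and length, 4 lay below and 0 above (20.9% and 26.2% of all genes in that fit). Their median change was -0.54 before the correction and -0.62 after it. Col3a1, a fibrillar collagen, was at least 2-fold lower in all 4 pairs (133 and 57.9 in controls, 15.2 and 23.9 in knockouts, adjusted p = 0.0957 in limma). Snai1 was the 1 above, and Col1a1, Fn1 and Cdh2 overlapped between the groups. The controls were far apart for Col1a1, at 670 in parental and 6.93 in vector cells, with the knockouts between them at 54.3 and 24.2. Fn1 had 606, 164, 414 and 340 in parental, vector, exon 3 and exon 2 cells. The epithelial markers summed to 130, 34.3, 107 and 74.8, nearly all of it Krt8 and Krt18, simple epithelial keratins, while Epcam and Cdh1, which define epithelium, stayed below 1 in all 4 libraries. Among macrophage markers 1 of 5 was tested, Cd68, a lysosomal protein, with a log2 change of 1.39. That list summed to 4.93, 3.55, 11.6 and 13.2 in parental, vector, exon 3 and exon 2 cells, nearly all of it Cd68, while Adgre1, which defines macrophages, was listed at 0 in every library. The T cell markers, 3 of 4 listed at 0 in every library, summed to between 0.471 and 1.13, and the endothelial markers to between 0.186 and 0.443. The part of these markers in the values of the myosin genes was not tested.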

How the data were processed

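RNA was isolated from 4 cell lines, and total RNA libraries were made with a stranded kit per the labels. The study's methods name a TruSeq RNA Sample Preparation kit for its RNA-seq libraries and do not mention strand. The authors deposited 1 table of RPKM, 1 column for each library, with 0 columns unmatched. The submitters' processing notes name CASAVA 1.8, GSNAP and GRCm38, and the gene model and counting rule are not given in the sources used here. Whole reads were recovered from the RPKM values for 100% of 15405 genes above 0 (tolerance 0.001 reads), and the totals behind the columns ran from 22472024 to 31235456. Intervals rest on these reads and cover counting error only.

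Genes with mean RPKM of at least 1 were tested as log2(RPKM + 1) with limma 3.58.1 in R 4.3.3 (intensity trend, 2 knockouts against 2 controls, no covariates, two-sided, Benjamini-Hochberg adjustment over 10871 genes, threshold 0.05). A log2 change on this scale understates the change of low genes. Shares and ratios were computed within each library from RPKM and compared by exact permutation. Coding sequences, GC content, coding lengths and coordinates came from GENCODE M21. For the GC and length correction, a smooth fit (natural splines with 4 degrees of freedom) was removed from each library over 10775 genes. It used GENCODE coding sequences, whose length equalled the length behind the RPKM for 55.8% of these genes. For Rtkn the coding length was 1695 bases and the length behind the RPKM 2825. The scripts were tested on simulated data. Alternatives were another pseudocount (0.1), median ratio and quantile scaling, no filter or a filter at 5, other limma priors, voom on recovered reads, the GC and length correction, and leaving out each line.

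The members and gene lists were chosen with earlier results of these data known. Named genes were S100a4, the members, the 3 genes nearest to Myh9 and, of each list, genes 2-fold or more apart in every pair, or else the 2 that were furthest from 0 in their least changed pair. Genes that overlapped between the groups had no such rank and were taken in list order. Acta2, Tagln and Myl4 were named in that way, not by the size of a change. A gene that the rule names in 1 list is not reported here. All other genes named, among them Myl6b, Ppfibp2, Myh11, Epcam, Cdh1 and Adgre1, were chosen after their values were seen.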

Additional observations from a re-analysis of the deposited data

Results flagged for a closer look

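Myh14, the heavy chain of myosin IIC, differed between the knockouts in opposite directions from the controls. The exon 3 knockout (RPKM 0.313, 48 reads) lay above both controls and the exon 2 knockout (RPKM 0.0272, 4 reads) below both, an 11.5-fold difference between the knockouts. The difference was not tested, and the controls themselves differed 4.20-fold (counting interval 2.17 to 8.78). The counting interval of the exon 3 knockout overlapped that of the vector control, and that of the exon 2 knockout overlapped that of the parental line. Of all tested genes, a set that leaves out Myh14, 857 (7.88%) had the knockouts on opposite sides of both controls.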

How the results depend on the processing

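No paired analysis was possible because the replicate numbers follow the order of deposition and pair no lines. Of the values compared under 13 alternatives, 7 reversed. The Myl6 change turned to -0.068 under quantile normalization and to -0.044 under the GC and length correction, and ran from -0.22 (without the parental line) to 0.58 when a line was left out. The Rtkn change turned to -0.079 under that correction and ran from -0.056 (without the parental line) to 0.16. The Myl12b share difference ran from -0.48 points (without the vector control, -0.47 without the exon 3 knockout) to 4.06. The cause was not tested.

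Over all genes the limma test called 2 lower and 0 higher, against 25 and 7 with the filter at 5, 242 and 43 with the robust prior, 550 and 238 without the parental line, 335 and 116 without the vector control, 3 and 1 without the exon 3 knockout, 1 and 2 without the exon 2 knockout, 1 and 0 with the pseudocount of 0.1 or quantile normalization, and 0 in either direction with median ratio scaling, no filter, the GC and length correction or voom. Members called lower were 0 to 1 with a line left out (1, Myl9, without the parental line). Members below both controls were 2 to 5 with a line left out, with 5 without the parental line. In such counts, here and below, only the lines that remain are compared, and a group of 1 line is separated more easily. Shares of all genes were computed only for the RPKM as deposited and the GC and length correction. Counts under the other settings therefore have no share beside them and are not read as results about the genes. Members above both controls were 4 under median ratio scaling, 1 under quantile normalization, 1 under the GC and length correction and 2 to 4 with a line left out, with 4 without the vector control. Members 2-fold lower in every pair were 0 to 3, with 3 without the exon 2 knockout.

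Muscle chains below both controls were 3 without a filter and 0 to 1 with a line left out, and those above were 0 with the filter at 5, 0 under the GC and length correction and 1 to 2 with a line left out. Regulators called lower were 0 to 3 with a line left out, with 3 without the parental line and 1 without the vector control. Regulators below both controls were 6 under the GC and length correction, and those above were 5 to 7 with a line left out. Liprin and rhotekin relatives below both controls were 0 under median ratio scaling, 0 under quantile normalization, 4 without a filter, 1 with the filter at 5 and 0 under the GC and length correction, and those above were 1 under quantile normalization and 1 under the correction. Further S100a4 partners below were 1 under the correction, and those above were 1 under quantile normalization. Unconventional myosins called lower were 1 with the robust prior and 0 to 1 with a line left out (1 without the parental line, 1 without the vector control). Unconventional myosins below both controls were 10 without a filter, and those above were 1 under quantile normalization, 1 without a filter, 4 under the correction and 0 to 3 with a line left out (3 without the parental line).

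The Myh9 to Myh10 ratio, with its alternatives chosen after seeing the data, lay between 1.05 and 1.32 on the log2 scale in all of them. With 1 line left out, the lone line of its group is assumed to vary like the others. Without the exon 3 or the exon 2 knockout, the change was 0.62 or 0.25 for Myh9, 0.88 or 0.056 for Myl12a and 0.72 or 0.27 for Myl12b. Depth limited only Myh14 among the members.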
